A study of Rattus norvegicus with 6 samples.

Results

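Gene expression was compared between H9c2 cells labelled as BMPR2 tail domain mutant and H9c2 cells labelled as empty vector, with 2 libraries in each group. H9c2, which another label writes as Hc92, is a myoblast line established from embryonic rat heart. The 4 libraries belong to a series of 6. The other 2 carry the label BMPR2 kinase domain mutant and entered the fit as a group of their own. That group adds to the estimate of the spread and gives the kinase mutant values set beside some results below. The series design describes the tail mutant cells as lacking that domain of the receptor, whereas the sample titles call them mutants. The sources used here give no allele, no method of introduction, no time and no statement on whether the lines are clones or whether the replicates are separate cultures, so each p-value speaks of the spread among these libraries alone, which may be technical. A gene was taken into the comparison when it had 10 or more counts in at least 2 of the 4 libraries, which held for 12094 of 26404 genes.

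Bone morphogenetic proteins signal through pairs of type II and type I receptors, and BMPR2 is one of the former. It is a serine/threonine kinase that phosphorylates type I receptors, which in turn phosphorylate the SMAD proteins that carry the signal to the nucleus. Unlike other type II receptors of its family it has a long cytoplasmic tail after the kinase domain, which binds proteins such as the cytoskeletal regulator LIMK1, and germline mutations in BMPR2 are the main inherited cause of pulmonary arterial hypertension.

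The files list genes by Ensembl rat identifier and do not pair them with names. In the GRCr8 gene table that was available, 0 of 47357 genes carry an Ensembl identifier. With 0 identifiers matched to a symbol, no gene is described by its function. The level of Bmpr2 was therefore not checked, nor were the 30 lists of pathway genes and cell type markers. No promoter or other sequence could be assigned to a gene. The results below are given for 4 identifiers, the 2 with the smallest p in each direction, and otherwise for groups of genes defined by their level and difference.

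Total counts in genes lay between 19116082 and 24936136 per library, and 14646 to 15071 genes had at least 1 count in each of the 4 libraries. The tail mutant replicates differed more from each other than the empty vector replicates did. Between the empty vector replicates 759 genes (6.28%) were 2-fold or more apart in CPM, counts relative to library size, scaled by the trimmed mean of M-values (TMM). Between the tail mutant replicates this held for 1625 genes (13.4%).

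ENSRNOG00000006052 was lower in the tail mutant than in empty vector. It had 3603 and 4879 counts in the empty vector libraries and 20 and 22 in the tail mutant libraries. In CPM these are 133 and 238 against 0.911 and 1.06, so that the groups were far from overlapping and both tail mutant libraries were low. The fitted difference was -7.55 ± 0.39 (SE, n = 2 per group) in log2 units (edgeR quasi-likelihood test, Benjamini-Hochberg adjusted p = 0.0103). Across the 12094 tested genes this was 1 call (0.00827%), and no other gene passed. The call was lost without tail mutant replicate 2 (edgeR, adjusted p = 0.367), without either kinase mutant library (0.0672 and 0.0678 in edgeR), with only the 4 libraries compared (0.0695 in edgeR) and with limma-voom (0.102), over a range from 1.5e-67 with DESeq2 to 0.367 across all alternatives. The direction was the same in each of them, and the log2 difference lay between -7.9 and -7.08.

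ENSRNOG00000011946 had 290 and 392 counts in the empty vector libraries and 6 and 3 in the tail mutant libraries. These are 10.7 and 19.1 CPM against 0.273 and 0.145 CPM, without overlap. The log2 difference of -6.11 ± 0.52 (SE, n = 2 per group) did not pass in edgeR (Benjamini-Hochberg adjusted p = 0.0712). It passed with DESeq2 (5.81e-16), in edgeR with no low-count filter (0.00512) and in edgeR scaled to total counts only (0.0244), the values over the alternatives reaching 0.447.

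The 2 identifiers with the smallest p among genes higher in the tail mutant were present at substantial levels in every library. ENSRNOG00000013391 stood at 64.0 and 72.8 CPM in the empty vector libraries and at 158 and 198 CPM in the tail mutant libraries. Its log2 difference was 1.38 ± 0.19 (SE, n = 2 per group), which did not pass in edgeR (Benjamini-Hochberg adjusted p = 0.234). ENSRNOG00000014104 stood at 82.4 and 69.9 CPM in empty vector and at 198 and 248 CPM in the tail mutant. Its log2 difference was 1.55 ± 0.23 (SE, n = 2 per group), and it did not pass either (edgeR, Benjamini-Hochberg adjusted p = 0.234). In both genes the groups did not overlap, the lower tail mutant library lying 2.17-fold and 2.41-fold above the higher empty vector library. Of the alternatives only DESeq2 called them, with adjusted p-values of 4.05e-08 for ENSRNOG00000013391 and 5.37e-07 for ENSRNOG00000014104, and the highest value for each was 0.999.

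The kinase mutant libraries were set against the same empty vector libraries, so the values are given side by side only. ENSRNOG00000006052 stood at 0.2 and 0.244 CPM there and ENSRNOG00000011946 at 1.25 and 1.66 CPM, the first below and the second above both tail mutant libraries. ENSRNOG00000013391 stood at 200 and 201 CPM and ENSRNOG00000014104 at 199 and 266 CPM in the kinase mutant. The direct log2 differences, tail minus kinase, were 2.12 ± 0.51 for ENSRNOG00000006052 and -2.75 ± 0.51 for ENSRNOG00000011946 (SE, n = 2 per group; edgeR, Benjamini-Hochberg adjusted p = 0.926 each). They were -0.17 ± 0.18 for ENSRNOG00000013391 and -0.06 ± 0.22 for ENSRNOG00000014104 (SE, n = 2 per group; adjusted p of 0.928 and 0.97 in edgeR). None of the 4 passed in this direct comparison. Against empty vector, ENSRNOG00000006052 was also lower in the kinase mutant, by -9.67 ± 0.46 in log2 units (SE, n = 2 per group, edgeR, Benjamini-Hochberg adjusted p = 0.00563). It was the 1 gene called in that contrast.

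**Figure D1:**
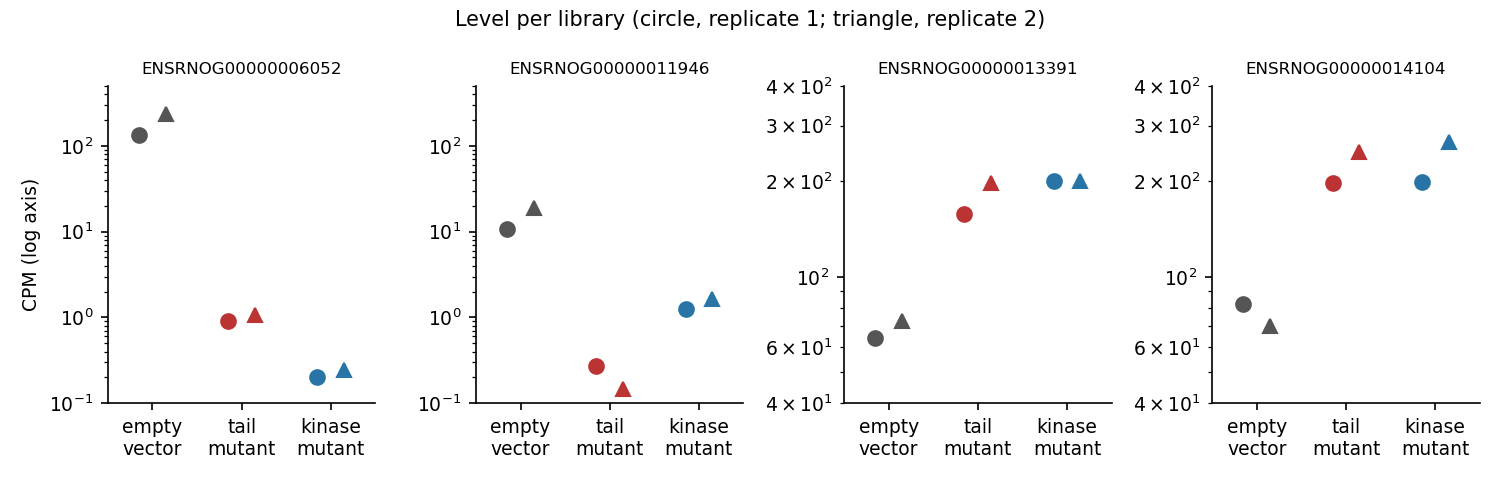
Level of 4 genes in each of the 6 libraries, in CPM on a log axis; circles are replicate 1 and triangles replicate 2, and the vertical range differs between the 2 left and the 2 right panels. In the left panels both tail mutant libraries lie far below both empty vector libraries (133 and 238 CPM against 0.911 and 1.06 CPM for ENSRNOG00000006052), and in the right panels they lie above them.

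Most genes differed little between the groups. The fitted difference was under 2-fold in 91.8% of the tested genes, and the median over all of them was 0.0043 on the log2 scale with quartiles at -0.24 and 0.22. Genes with a large difference were more often lower than higher in the tail mutant. A fitted difference of 2-fold or more without overlap between the libraries was found for 516 genes lower in the tail mutant (4.27% of tested genes) and 274 higher (2.27%), together 790 genes (6.53%). At any size, the libraries did not overlap in 2388 genes lower (19.7%) and 2193 genes higher (18.1%) in the tail mutant, together 37.9%. Libraries in random order, 2 against 2, would be separated in a share of 0.333 of genes, so separation alone says little about a gene. The direction was thus nearly balanced over all separated genes and unequal among those with large differences.

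Of the 516 lower genes, 242 had a fitted difference of 4-fold or more. The median over all 516 was -1.89 on the log2 scale. Of the 274 higher genes 58 had a fitted difference of 4-fold or more, and the median over all 274 was 1.5. The fitted difference compares the groups, so single libraries of a gene in either set can lie closer together than it. For the 18 lower genes at 0 counts in both tail mutant libraries a floor of 3 counts per library was used in these values, which covers counting error only. All 18 were 2-fold or more lower against that floor. The gap between the groups exceeded the larger of the 2 replicate gaps in 211 of the 516 lower genes (40.9%) and in 103 of the 274 higher genes (37.6%). In the remaining genes of both sets the libraries were separated, but by no more than replicates of one group differed.

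Single libraries contributed unequally. In 421 of the 516 lower genes (81.6%) empty vector replicate 2 was the higher of the empty vector libraries. In 172 of the 274 higher genes (62.8%) the same library was the lower of them, so it was the more extreme in both sets. In 193 of the 274 higher genes (70.4%) tail mutant replicate 2 was the higher of the tail mutant libraries, and in 278 of the 516 lower genes (53.9%) it was the lower of them. Such shares over all tested genes are not given here, so none of these percentages can be set against them. The 516 lower genes took 3.18% and 3.59% of the counts in the empty vector libraries against 1.79% and 0.604% in tail mutant replicates 1 and 2. The 274 higher genes took 0.731% and 0.652% in empty vector against 1.31% and 2.08% in the tail mutant. In kinase mutant replicates 1 and 2 the lower genes took 1.46% and 2.59%, and the higher genes 1.58% and 1.23%. Both sets thus also lay away from empty vector, in the same directions, in the kinase mutant. By these summed shares, in which abundant genes weigh most, both sets were farther from empty vector in tail mutant replicate 2 than in replicate 1, while gene by gene the lower set was nearly even. Because the sets were chosen on the empty vector and tail mutant libraries, the shares describe the sets and are no test.

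**Figure D2:**
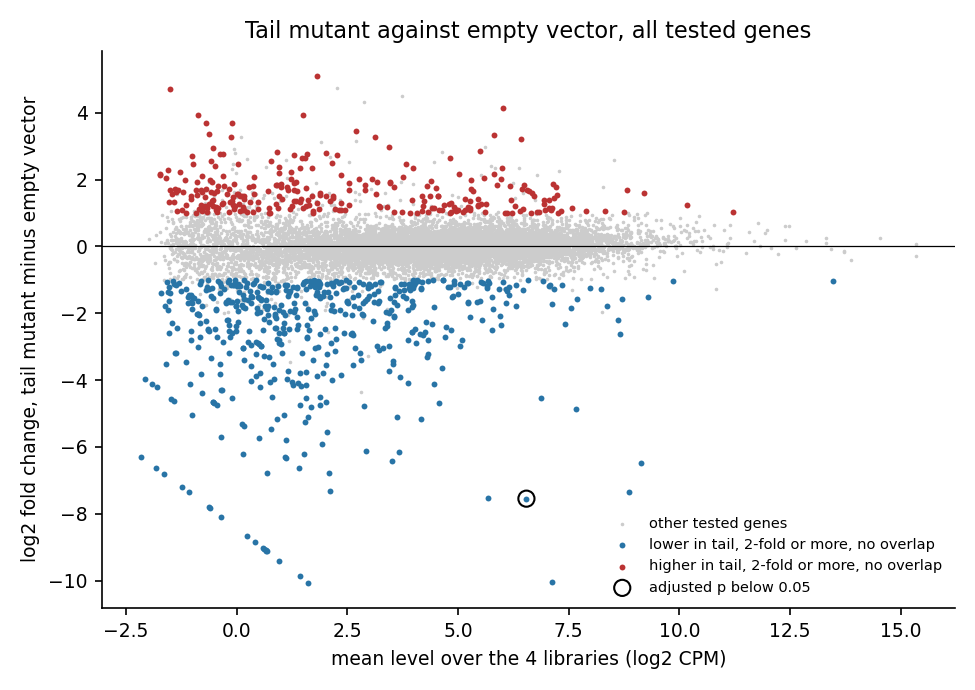
Log2 fold change of the tail mutant against empty vector (vertical axis) by mean level over the 4 libraries in log2 CPM (horizontal axis), 1 point per tested gene. Blue and red points are the 516 lower and 274 higher genes with a fitted difference of 2-fold or more and no overlap. The circle marks the 1 gene called after adjustment. The straight line of points at the lower left holds genes at 0 counts in both tail mutant libraries, whose fitted value depends on the prior count.

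Some of the separated genes were close to absence in one group. There were 59 genes with at least 10 counts in both empty vector libraries and 3 or fewer in both tail mutant libraries, and 7 genes with the opposite pattern. All 59 are among the 516 lower genes and all 7 among the 274 higher ones, so these counts describe those sets and are no further support for their imbalance. Each of these genes also passed the count filter through the libraries of 1 group alone, so its separation follows from that selection. In 18 of the 59 no tail mutant library had a count, and the opposite pattern had 0 such genes. A count of 0 allows up to 3 counts, or 0.137 and 0.145 CPM in the tail mutant libraries. Other genes were counted mainly in a single library. At least 10 counts in 1 library with 3 or fewer in each of the other 3 were seen for 72 genes in empty vector replicate 2, 49 in tail mutant replicate 2, 16 in empty vector replicate 1 and 6 in tail mutant replicate 1.

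At least 8-fold apart in every library, with 1 CPM or more in both libraries of the higher group and counts under 3 raised to 3, 33 genes were lower in the tail mutant (0.273%) and 2 were higher (0.0165%). The 33 genes ranged from 1.19 to 1740 CPM in the empty vector libraries, with a median of 5.65 CPM, and from 0 to 23.7 CPM in the tail mutant libraries, with a median of 0.164 CPM. The smallest fold between any empty vector and any tail mutant library had a median of at least 14-fold over these genes, and it was at least 20-fold in 11 of them and largest, at least 125-fold, in ENSRNOG00000006052. In 14 of the 33 both tail mutant libraries were at 3 counts or fewer. These 14 passed the count filter through the empty vector libraries alone, so their separation follows from that selection. Empty vector replicate 2 was the higher of its group in 27 of the 33. The 2 higher genes stood at 1.59 to 6.63 CPM in the tail mutant and 0.111 to 0.438 CPM in empty vector. Together these were 35 genes (0.289%). In the kinase mutant libraries the 33 lower genes ranged from 0 to 76 CPM. Their median there was 0.197 CPM, near the tail mutant median, so by its median the lower set is not particular to the tail mutant. The 2 higher genes stood at 0.244 to 7.59 CPM in the kinase mutant. Both sets were chosen partly on the empty vector libraries, so the kinase mutant values are set beside them only. Leaving out empty vector replicate 1 or tail mutant replicate 1 gave 134 genes each, and leaving out tail mutant replicate 2 gave 79, a criterion over fewer libraries being a weaker one, and lower genes outnumbered higher ones each time (114 against 20, 103 against 31, and 73 against 6).

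The direction of the difference varied with the level of the genes. Among 837 genes under 1 CPM on average over the 4 libraries, 13.9% were 2-fold or more lower without overlap and 9.2% higher. Among 2911 genes from 1 to 10 CPM these shares were 9.03% and 3.3%, the widest imbalance. They were 1.73% and 1.12% among 6604 genes from 10 to 100 CPM, and 1.32% and 1.55% among 1742 genes over 100 CPM. The median standard error of the log2 difference was 0.69, 0.4, 0.22 and 0.22 in these classes, so that a given difference was measured less precisely in the 2 lowest classes. A gene can also pass the count filter through the libraries of 1 group alone, and it is then separated by that selection. Few counts make this likeliest in the lowest classes, where it can raise the shares of separated genes in either direction.

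By the unadjusted p in edgeR, below 0.05 in 612 genes lower (5.06%) and 435 higher (3.6%), together 8.66%, where 605 genes are expected without any difference, the imbalance turned with level. From 1 to 10 CPM 208 genes were lower and 80 higher. From 10 to 100 CPM 296 were lower and 206 higher. Over 100 CPM 51 were lower and 117 higher. No test compared the level classes. Under 10 CPM and from 10 to 100 CPM, lower genes outnumbered higher ones in all 14 alternatives run. Over 100 CPM, higher genes outnumbered lower ones in 13 of the 14. The exception was the fit without empty vector replicate 1, with 54 higher and 59 lower. Scaled to total counts only, higher genes made up 29.7% of all genes at this p, against 41.5% with TMM, and the median difference over all tested genes moved to -0.032 on the log2 scale.

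**Figure D3:**
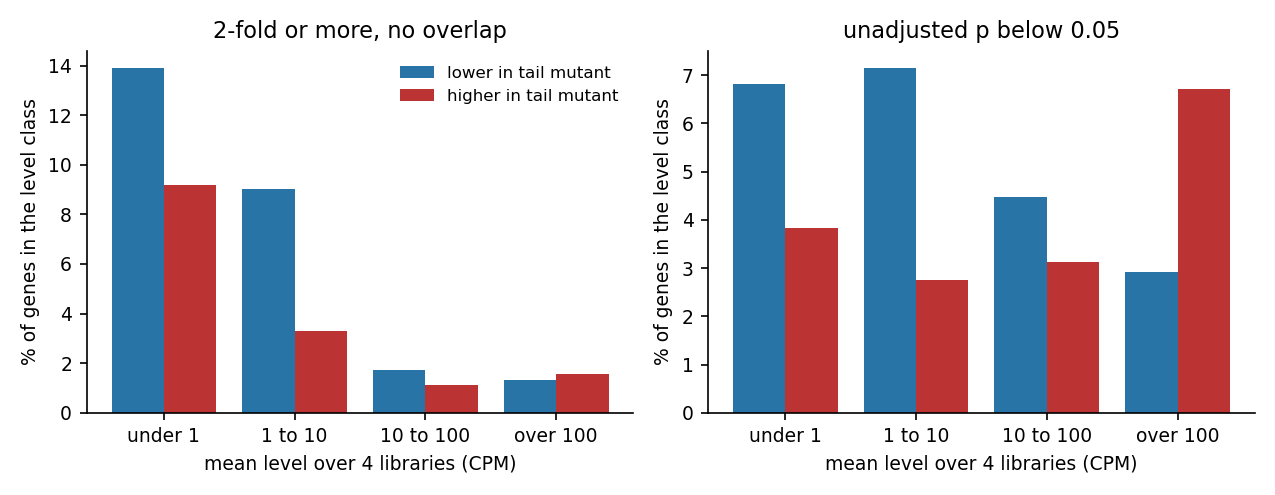
Share of genes, as a percentage of each class of mean CPM over the 4 libraries. The left panel shows genes with a fitted difference of 2-fold or more and no overlap. The right panel shows genes with an unadjusted p below 0.05 in edgeR. Blue bars are genes lower and red bars genes higher in the tail mutant. Lower genes prevail under 10 CPM (9.03% against 3.3% from 1 to 10 CPM, left), while over 100 CPM more genes are higher at this p (117 against 51, right).

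Comparison of single libraries set the difference between groups against that between replicates. Tail mutant replicate 1 differed 2-fold or more from empty vector replicate 1 in 872 genes (7.21%), a number near the 759 genes between the empty vector replicates. It differed from empty vector replicate 2 in 1364 genes (11.3%). Tail mutant replicate 2 differed in 1600 (13.2%) and 1802 genes (14.9%) from empty vector replicates 1 and 2, beside 1625 genes between the tail mutant replicates. Genes lower in the tail mutant library outnumbered those higher in all 4 pairs between groups. They were 583 against 289 for both replicates 1, and 1089 against 713 for both replicates 2. Between the tail mutant replicates the directions were nearly even, with 835 genes lower and 790 higher in replicate 2. Between the empty vector replicates they were not, with 475 genes higher and 284 lower in replicate 2, so an imbalance of direction was also seen between replicates of one group.

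The number of genes past a threshold depended on the tool and on single libraries. EdgeR's quasi-likelihood test called 0 genes higher in the tail mutant, with 435 at an unadjusted p below 0.05, where DESeq2 called 92 and limma-voom 0. Without tail mutant replicate 1 edgeR called 21 genes, 16 of them higher, and the genes at an unadjusted p below 0.05 numbered 1228 lower and 1097 higher. Without empty vector replicate 2 they were 236 lower and 149 higher, and without empty vector replicate 1 they were 542 lower and 252 higher. In these fits the single library left in a group is assumed to vary like those of the other groups.

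**Figure D4:**
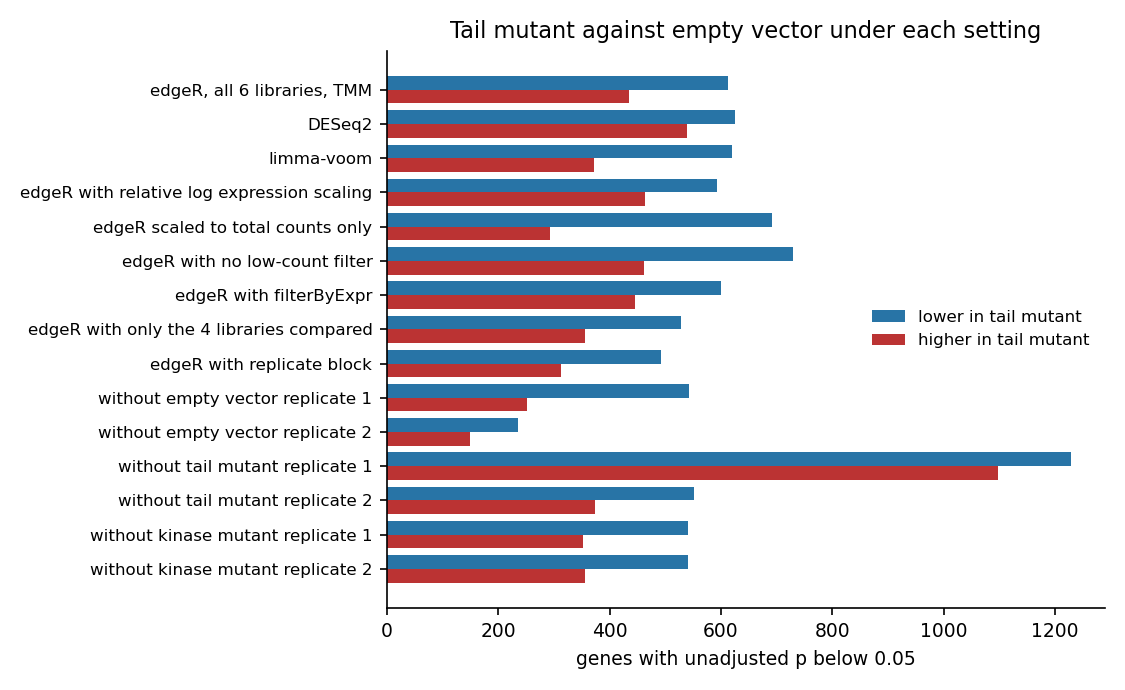
Number of genes with an unadjusted p below 0.05, lower (blue) or higher (red) in the tail mutant, under each setting. Lower genes outnumber higher ones in every setting drawn, and the bars range from 236 and 149 without empty vector replicate 2 to 1228 and 1097 without tail mutant replicate 1.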

How the data were processed

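PolyA RNA of 6 libraries was sequenced after column extraction. The authors deposited raw counts of reads for each Ensembl gene, 1 file per library, made with Trimmomatic 0.33, STAR 2.4.0 and HTSeq 0.6.1p1 on build Rnor_5.0, per the submitters' processing notes. No source used here gives the annotation release, filters or strand setting, so overlapping and antisense genes are not told apart. The 5 rows naming no gene entered neither library sizes nor tests. Of all rows' totals, reads in no gene took 15.4% to 17.5% and alignments that were not unique 27.3% to 31.5%, so counts of genes with near-identical copies are too low.

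Counts were fitted in R 4.3.3 with edgeR 4.0.16 (TMM, robust dispersions, quasi-likelihood test, group as the only term, 6 libraries, 3 residual degrees of freedom, Benjamini-Hochberg adjustment over 12094 genes, threshold 0.05). The common biological coefficient of variation was 27.6%. Each SE of a log2 difference is the size of that difference divided by the square root of the quasi-likelihood F. It thus rests on a spread estimated over all 6 libraries and moderated across genes, not on the 2 libraries per group alone. CPM of single libraries were compared as log2 CPM with a prior count of 2. DESeq2 1.42.0 and limma 3.58.1 were alternatives. The fits were also run on simulated counts with equal spread in all groups, unlike these replicates, so that run does not decide between the tools. Comparing replicates gave a mean chi-square of 59.8 per gene in empty vector and of 178 in the tail mutant, where sampling noise gives about 1, so no libraries were counted as one. That mean is dominated by abundant genes.

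The comparison, lists and tests were chosen with earlier results of these data known. The rule for named genes took genes with a symbol and so named none; the 2 identifiers with the smallest p in each direction, a choice made after the files were seen, replaced it.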

Additional observations from a re-analysis of the deposited data

Results flagged for a closer look

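The share of uniquely aligned reads that fell in no annotated gene lies outside the comparison of genes. It was higher in both tail mutant libraries, at 23.0% and 25.3%, than in both empty vector libraries, at 22.5% and 21.3%. It was 23.9% and 22.6% in the kinase mutant libraries, also above both empty vector libraries. The means were 24.2% ± 1.63 and 21.9% ± 0.849 (SD, n = 2), with a 2-sided exact permutation p of 0.333, the smallest that 2 libraries against 2 can give. The part of this share in the differences between genes was not tested.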

How the results depend on the processing

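The 1 gene called by edgeR became 250 with DESeq2, 0 with limma-voom, 9 with no low-count filter, 3 scaled to total counts only, 0 with only the 4 libraries compared, and 0 to 21 when single libraries were left out. With the replicate number as a block edgeR called 2 genes. The labels do not say that the numbers pair the libraries. The differences between replicates correlated across genes at r of 0.128 for empty vector and tail mutant, -0.122 for empty vector and kinase mutant and -0.331 for tail and kinase mutant. Genes at an unadjusted p below 0.05 ranged from 149 to 1097 higher and from 236 to 1228 lower without single libraries. The higher ones numbered 292 of 983 scaled to total counts only, a setting added after the data were seen. The 790 genes 2-fold or more apart became 1770 with no low-count filter, where 17482 genes were tested, and 790 to 1607 without single libraries. The 35 genes 8-fold apart ranged from 35 to 134 without single libraries. None of the 4 identifiers reversed direction in any of the 14 alternatives. The lists' medians were not run, since no list could be applied. Precision was lowest in genes with few counts: the median standard error of the log2 difference was 0.69 under 1 CPM and 0.22 over 100 CPM.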
